A study of Mus musculus with 12 samples.

Results

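Genes of antigen presentation, the peptide display system of vertebrate cells, were followed in bone marrow hematopoietic stem and progenitor cells (HSPCs) of mice. The genes were chosen by symbol and comprised 5 genes of MHC class I presentation (H2-K1, H2-D1, B2m, Tap1 and Nlrc5) and 5 genes of MHC class II presentation (H2-Aa, H2-Ab1, H2-Eb1, Cd74 and Ciita), 10 of the 20792 genes listed. HSPCs came from wild-type male mice, whose diets began at 4 to 6 weeks of age and lasted 8 weeks, and were sorted as Lin-CD127-c-kit+Sca-1+. The 4 groups had 3 RNA-seq libraries each. ND mice ate chow with 0.5% NaCl, and HSD mice ate chow with 8% NaCl and drank water with 1% NaCl. ND ICHD7 and HSD ICHD7 mice had the same diets, then received blood into the striatum as a model of intracerebral hemorrhage (ICH), were all fed ND from then on, and were sampled on day 7. Each ND or HSD library was a pool of 3 animals. The pooling of the ICH libraries was not given in the sources used here, so p values measure the spread between these libraries.

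Class I molecules are carried by most nucleated cells and present peptides made inside the cell to CD8 T cells. Class II molecules present peptides from the endocytic route to CD4 T cells and are found mainly on dendritic cells, B cells and macrophages. Each class has a master transactivator, NLRC5 for class I and CIITA for class II, and both act at promoters through the same group of bound factors (RFX, CREB and NF-Y) without binding DNA themselves. The lineage antibodies of the sort included one against I-A/I-E, the class II proteins themselves, so cells with much class II on the surface had been gated out before sequencing.

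Of the members, 6 lie in the MHC on chromosome 17 (GRCm38). H2-K1 is at chr17:33996017-34000347 and H2-D1 at chr17:35262730-35267499, and between them lie Tap1 (chr17:34187553-34197225), H2-Ab1 (chr17:34257689-34269419), H2-Aa (chr17:34282744-34287823) and H2-Eb1 (chr17:34305867-34316674). B2m (chr2:122147686-122153083), Nlrc5 (chr8:94434356-94527272) and Ciita (chr16:10480059-10528418) lie elsewhere, as does Cd74. Of the 150-base windows of each longest coding transcript, only those of H2-D1 were in part identical to another gene, 1.79% of them shared with H2-Q1, and none of the other 9 members had such a window.

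Promoter sequence of RefSeq on GRCm38.p6 was searched on both strands over 250 bases before the start for 6 members (H2-K1, H2-D1, B2m, Tap1, H2-Aa and H2-Eb1). Promoters of the other members were not searched. Stretches of 5 of them are shown because they hold the letters of elements that the shared factors are known to use, with nearly the same spacing in 3 class I genes and H2-Aa. Capitals mark TGACG (core of a CREB element), ATTGG (the reverse of CCAAT, the NF-Y element), AGCAAC (within the RFX element of class II genes) and GGGGATTCC (an NF-kB element). The pair of motifs was chosen after the sequences were seen.

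H2-K1, chr17:34000344-34000473, minus strand: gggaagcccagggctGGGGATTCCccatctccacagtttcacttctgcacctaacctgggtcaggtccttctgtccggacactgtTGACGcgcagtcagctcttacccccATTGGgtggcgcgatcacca

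H2-D1, chr17:35262908-35263037, plus strand: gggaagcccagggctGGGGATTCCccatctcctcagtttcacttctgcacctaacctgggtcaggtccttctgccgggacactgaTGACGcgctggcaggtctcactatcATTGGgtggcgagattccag

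B2m, chr2:122147594-122147653, plus strand: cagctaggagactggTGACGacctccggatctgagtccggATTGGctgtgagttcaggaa

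H2-Aa, chr17:34287852-34287912, minus strand: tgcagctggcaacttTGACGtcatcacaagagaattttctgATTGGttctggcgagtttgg

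H2-Eb1, chr17:34305760-34305827, plus strand: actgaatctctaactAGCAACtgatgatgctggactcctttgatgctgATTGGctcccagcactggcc

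TGACG stood 25 bases before ATTGG in H2-K1, H2-D1 and B2m and 26 bases before it in H2-Aa. That order with a distance of 15 to 40 bases occurred in 115 of 32851 promoters, or 0.35%. In the window of Tap1, TGACG and CCAAT were matched but not as this pair. H2-Eb1 had AGCAAC 33 bases before ATTGG, an order found at those distances in 0.183% of promoters. GGGGATTCC, which 0.213% of promoters held, was present in H2-K1 and H2-D1 and not matched in the windows of B2m, Tap1, H2-Aa and H2-Eb1. Single motifs were common, with TGACG in 17.8%, CCAAT in 33.9% and AGCAAC in 12.2% of promoters on either strand. GAAANNGAA, a core of an interferon-stimulated element, was in 7.13% of promoters and matched B2m alone among the 6. Only this spelling was searched. The lack of a match in H2-K1, H2-D1 and the other promoters therefore does not show that they lack an interferon-stimulated element.

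Reads in listed genes numbered 8678304 to 27491973 per library. Kit ranged from 329 to 487 CPM (the TMM-scaled read count of a gene relative to the library total) over the 12 libraries and Flt3 from 116 to 296 CPM, while Ly6a, which encodes the Sca-1 used in the sort, was low in every library, at 2.42 to 6.72 CPM. ND replicate 1 and HSD replicate 2 stood apart by macrophage genes, with sums over 15 markers of 587 and 1049 CPM against 98.8 to 229 CPM in the other libraries. HSD ICHD7 replicate 3 was the deepest library and its 12 HSPC markers summed to 1035 CPM, against 1537 to 1904 CPM elsewhere. Genes listed at 0 numbered 1393 to 1755 in the libraries without ICH and 2 to 29 in those after ICH, a difference that cannot be told apart from ICH itself.

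The members spanned 3 orders of magnitude, and in each group the class I means lay above the class II means. Levels between genes were compared as CPM per kb of exon, mean ± SD over 3 ND libraries. B2m, the light chain that all classical class I molecules share, came first at 429 ± 9.06 CPM per kb. The heavy chains H2-K1 (164 ± 8.41) and H2-D1 (155 ± 11.4) followed with overlapping ranges, and then Tap1, a subunit of the transporter that brings peptides into the endoplasmic reticulum, at 18 ± 1.79 CPM per kb. Nlrc5 stood at 11.8 ± 0.245 CPM per kb, and its class II counterpart Ciita was the lowest member at 0.250 ± 0.0383 CPM per kb. Cd74, the invariant chain that fills the class II groove until peptide is loaded, and H2-Ab1, the beta chain of I-A, were level at 6.55 ± 1.31 and 6.55 ± 1.16 CPM per kb. H2-Eb1, the beta chain of I-E (1.27 ± 0.355 CPM per kb), and H2-Aa, the alpha chain of I-A (1.08 ± 0.230 CPM per kb), also overlapped each other.

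**Figure D1:**
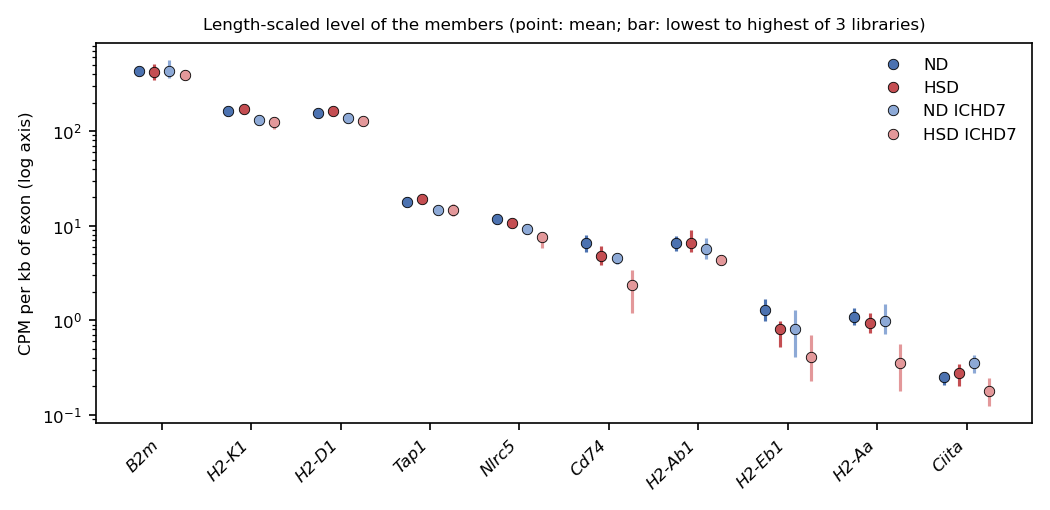
Level of each member in CPM per kb of exon on a log axis, by group (points are means of 3 libraries and bars run from the lowest to the highest). Class I genes lie above every class II gene in all 4 groups. The HSD ICHD7 point is the lowest of the 4 for every member, class I and class II alike. It lies at 0.350, 2.35 and 0.177 CPM per kb for H2-Aa, Cd74 and Ciita.

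The order of the members was the same in all groups, apart from neighbours whose ranges overlapped in ND. In HSD ICHD7, for example, H2-D1 (129 ± 2.86 CPM per kb) stood above H2-K1 (123 ± 17.9). H2-Ab1 (4.35 ± 0.477 CPM per kb) in that group stood clear of Cd74 (2.35 ± 1.11), and H2-Aa (0.350 ± 0.191) reached down to the range of Ciita (0.177 ± 0.0605). The class II level was low in reads as well, with 16 to 94 reads of H2-Aa, 6 to 51 of H2-Eb1 and 19 to 56 of Ciita in a library, against 2973 to 10566 of B2m.

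Whether a past high-salt diet left a mark on these genes in HSPCs of mice with ICH was asked by comparing HSD ICHD7 with ND ICHD7. Of the class II genes 3 were lower after HSD, and no class I gene passed the test. Ciita had 2.63, 3.34 and 4.11 CPM in the ND ICHD7 libraries and 2.32, 1.55 and 1.19 CPM in the HSD ICHD7 libraries. All 3 HSD ICHD7 values lay below all 3 ND ICHD7 values, and Ciita was 1.78-fold lower (log2 fold change -0.83, SE 0.25, 95% interval -1.41 to -0.26, adjusted p = 0.260 by limma). H2-Aa had 2.70, 5.61 and 3.01 CPM after ND and 2.12, 1.18 and 0.69 CPM after HSD. Its groups did not overlap either, although ND ICHD7 replicate 2 was far above the other ND ICHD7 libraries. It was 2.36-fold lower after HSD (log2 fold change -1.24, SE 0.34, 95% interval -2.01 to -0.47, adjusted p = 0.256 by limma). Cd74 had 8.02, 8.18 and 6.68 CPM after ND and 5.74, 4.07 and 2.02 CPM after HSD, again without overlap (log2 fold change -0.96, SE 0.30, 95% interval -1.64 to -0.28, adjusted p = 0.260 by limma). In bulk RNA, fewer cells with class II transcripts and less transcript per cell cannot be told apart.

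**Figure D2:**
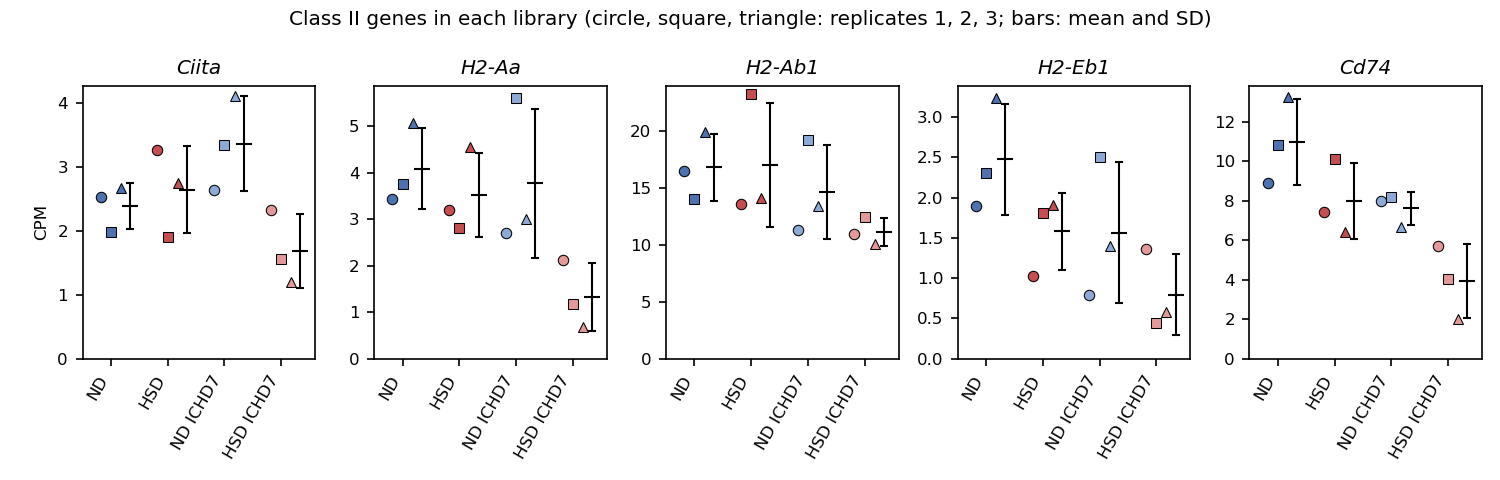
CPM of the 5 class II genes in each library, by group, with the mean and SD beside the points. The 3 HSD ICHD7 libraries lie below the 3 ND ICHD7 libraries for Ciita, H2-Aa and Cd74, while the groups overlap for H2-Ab1 and H2-Eb1.

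H2-Ab1, the most abundant class II chain, had 11.3, 19.2 and 13.4 CPM in ND ICHD7 and 10.9, 12.5 and 10.1 CPM in HSD ICHD7. Its groups overlapped and the log2 fold change of -0.35 did not pass p under 0.05 (95% interval -0.79 to 0.09, limma). H2-Eb1 ranged from 0.79 to 2.51 CPM after ND and from 0.44 to 1.37 CPM after HSD, with a log2 fold change of -0.65 (95% interval -1.46 to 0.16, limma). The 5 class I members had log2 fold changes from -0.29 to -0.02, and none passed p under 0.05. Nlrc5 had the largest of these, with 78.1, 84.3 and 71.3 CPM in ND ICHD7 and 71.8, 71.6 and 49.7 CPM in HSD ICHD7 (log2 fold change -0.29, 95% interval -0.63 to 0.05, limma). For H2-K1 the interval was -0.40 to 0.19 and for B2m -0.54 to 0.28 on the log2 scale, so changes within those intervals were not excluded.

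Ciita, H2-Aa and Cd74 were thus the members with an unadjusted p under 0.05, 3 of 10 and all lower, where 10.2% of the 20079 genes tested were lower and 5.42% higher at that threshold. At an adjusted p under 0.05, 0.0% of genes passed by limma and none by edgeR, although 3134 genes had an unadjusted p under 0.05 by limma, and 104 genes passed by DESeq2, no member among them. Over the alternatives tried the adjusted p of H2-Aa lay between 0.0659 and 0.508, that of Cd74 between 0.0887 and 0.508 and that of Ciita between 0.0951 and 0.508. Groups without overlap were seen for 4 of the 10 members (Ciita, H2-Aa, Cd74 and H2-D1), against 23.4% of all genes tested. The median log2 fold change was -0.83 over the class II members and -0.10 over the class I members, beside -0.03 over all genes.

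HSD ICHD7 replicate 3, the library that stood apart, had the lowest Ciita, H2-Aa, Cd74, H2-Ab1, Nlrc5, H2-K1 and Tap1 of all libraries. The lowest H2-D1, B2m and H2-Eb1 were in other HSD ICHD7 libraries. Without it the log2 fold change was -0.66 for Ciita, -0.96 for H2-Aa and -0.60 for Cd74, and these 3 members still had an unadjusted p under 0.05 by limma. They also did without any other single library, and without ND ICHD7 replicate 2 the log2 fold change of H2-Aa was -0.95. Tap1, at -0.02, turned to 0.03 under RLE scaling.

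Markers of other blood lineages were followed in the same comparison, where 10.2% of all genes were lower and 5.42% higher at an unadjusted p under 0.05. Of 10 dendritic cell markers tested, 4 passed that threshold, all lower, and 2 of 10 did without HSD ICHD7 replicate 3. Cd86, a costimulatory ligand, had 3.42, 3.16 and 4.40 CPM in ND ICHD7 and 2.25, 1.40 and 1.41 CPM in HSD ICHD7, and Itgax, which encodes CD11c, had 4.08, 4.06 and 5.95 against 3.55, 2.96 and 2.17 CPM. Without Flt3, which is also an HSPC marker, the dendritic markers summed to 24.3 to 29.3 CPM in ND ICHD7 and 19.3 to 25.7 CPM in HSD ICHD7. Of 7 B cell markers tested 3 were lower (Blk, Cd22 and Pax5) and 1 higher (Cd79b), but their sums, mostly Ighm, were 69.3 to 92.7 and 83.3 to 110 CPM. Leaving out HSD ICHD7 replicate 3 gave 2 B cell markers lower and 0 higher. Ms4a1 and Pax5 were at 0 in at least 1 library. Of 4 T and NK markers tested, 2 were lower and 0 higher at that threshold, and 2 were lower without HSD ICHD7 replicate 3. Lck was lower in HSD ICHD7, and Klrb1c had 1.64, 2.69 and 1.84 CPM in ND ICHD7 and 1.37, 0.59 and 0.69 CPM in HSD ICHD7. T and NK markers summed to 42.2 to 47.5 and 41.2 to 71.9 CPM, with 65.5 CPM of Nkg7 in HSD ICHD7 replicate 3. Neutrophil markers gave 41.3 to 70.5 and 64.1 to 73.0 CPM, and macrophage markers 137 to 222 and 98.8 to 229 CPM, so these sums overlapped between the groups. Of 15 macrophage markers tested, 0 had an unadjusted p under 0.05 by limma. The HSPC markers summed to 1652 to 1666 CPM in ND ICHD7 and to 1035 to 1556 CPM in HSD ICHD7, without overlap. The part of these genes in the class II result was not tested.

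Without ICH the diets were compared to ask what 8 weeks of salt alone did. Of the members, Cd74 was the only one below an unadjusted p of 0.05, with 8.89, 10.9 and 13.3 CPM in ND and 7.42, 10.1 and 6.44 CPM in HSD. These groups overlapped, and the log2 fold change was -0.44 (SE 0.19, 95% interval -0.86 to -0.03, adjusted p = 0.680 by limma). It no longer had an unadjusted p under 0.05 without any one of ND replicate 2 (log2 fold change -0.44), ND replicate 3 (-0.30), HSD replicate 1 (-0.40) and HSD replicate 3 (-0.31). It did without ND replicate 1 (-0.58) and without HSD replicate 2 (-0.62), the macrophage-rich libraries, and without both the log2 fold change was -0.75 (adjusted p = 0.0698 by limma).

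Nlrc5 had 97.9, 101 and 102 CPM in ND and 90.3, 87.2 and 94.6 CPM in HSD, and was the 1 member of 10 whose groups did not overlap (log2 fold change -0.14, 95% interval -0.30 to 0.01, limma), against 12.8% of the 16787 genes tested. By edgeR, and after RLE scaling, Nlrc5 was below an unadjusted p of 0.05. Ciita was at 2.39 ± 0.365 CPM in ND and 2.64 ± 0.680 CPM in HSD, and H2-Aa at 4.08 ± 0.874 and 3.52 ± 0.908 CPM. H2-Eb1 had 1.89, 2.30 and 3.237 CPM in ND and 1.02, 1.81 and 1.90 CPM in HSD, groups that just overlapped, and its log2 fold change of -0.52 was the largest in size of the 10 (95% interval -1.10 to 0.06, limma). It had an unadjusted p under 0.05 without ND replicate 1 (-0.67) and without both macrophage-rich libraries (-0.76). H2-Ab1 was at 16.8 ± 2.97 and 17.01 ± 5.46 CPM, its highest value of 23.3 CPM being that of HSD replicate 2. The class I members other than Nlrc5 had log2 fold changes between -0.03 and 0.08 with intervals inside -0.28 to 0.26 (limma). The 1 member lower and 0 higher compare with 3.28% of all genes lower and 3.65% higher, and 0.0774% of genes passed an adjusted p of 0.05 by limma.

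The change of the diet effect with ICH was tested as an interaction over the 12 libraries. Ciita (log2 difference -0.94, SE 0.35, 95% interval -1.69 to -0.19) and H2-Aa (log2 difference -1.04, SE 0.44, 95% interval -1.99 to -0.09) were below an unadjusted p of 0.05, with adjusted p of 0.541 and 0.583 by limma. For Ciita, the log2 fold change between the diets was 0.10 without ICH and -0.83 after ICH. All 10 members had a negative interaction term, but the other 8 did not pass. The 2 members lower and 0 higher stand beside 6.13% of 20393 genes lower and 2.22% higher, and 0.0% passed an adjusted p of 0.05 by limma. With the adjusted threshold edgeR and DESeq2 called none either, while 1703 genes had an unadjusted p under 0.05 by limma. With single libraries left out, Ciita lost its unadjusted p under 0.05 without ND ICHD7 replicate 3 (log2 difference -0.80). H2-Aa lost it without any one of ND replicate 1 (-0.94), ND replicate 2 (-0.99), HSD replicate 3 (-0.87), ND ICHD7 replicate 2 (-0.75), HSD ICHD7 replicate 2 (-1.02) and HSD ICHD7 replicate 3 (-0.77), and also without both macrophage-rich libraries (-1.06).

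**Figure D3:**
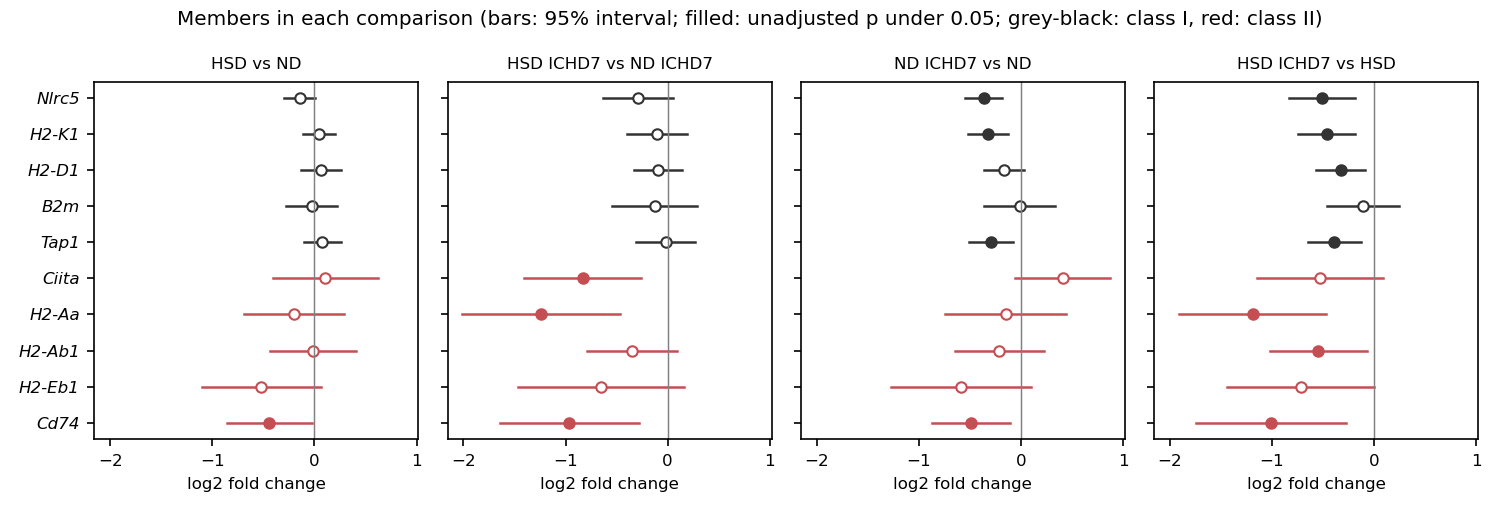
Log2 fold change of each member in the 4 comparisons of groups, with 95% intervals from limma; filled points had an unadjusted p under 0.05. In HSD ICHD7 against ND ICHD7 the filled points are Ciita, H2-Aa and Cd74, with Nlrc5 at -0.29 close to H2-Ab1 at -0.35; after ICH on ND they are H2-K1, Nlrc5, Tap1 and Cd74, with B2m near 0.

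ICH was compared with no ICH within each diet. On ND, 3 of 5 class I and 1 of 5 class II members were lower on day 7 at an unadjusted p under 0.05. H2-K1 had 492, 455 and 502 CPM in ND and 400, 365 and 396 CPM in ND ICHD7. The groups did not overlap, and H2-K1 was lower after ICH (log2 fold change -0.32, SE 0.09, adjusted p = 0.0317 by limma). Nlrc5 had 97.9, 101 and 102 CPM in ND and fell to 78.1, 84.3 and 71.3 CPM in ND ICHD7 (log2 fold change -0.37, SE 0.08, adjusted p = 0.0114 by limma). Its ICH libraries all lay below its libraries without ICH. Tap1 was at 98.6 ± 9.80 CPM in ND and 80.3 ± 7.03 CPM in ND ICHD7 (log2 fold change -0.29, adjusted p = 0.0744 by limma). H2-D1 was at 399 ± 29.4 and 355 ± 11.1 CPM, without overlap (log2 fold change -0.17, 95% interval -0.36 to 0.03, limma). B2m was at 368 ± 7.79 CPM in ND and 373 ± 99.1 CPM in ND ICHD7 (log2 fold change -0.01, 95% interval -0.36 to 0.33, limma). That interval included the log2 fold changes of both heavy chains, so a difference of B2m from them was not shown. ND ICHD7 replicate 2 had 488 CPM of B2m beside 319 and 314 CPM in the others. Without that replicate the log2 fold change of B2m was -0.22 (unadjusted p = 0.0078 by limma).

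**Figure D4:**
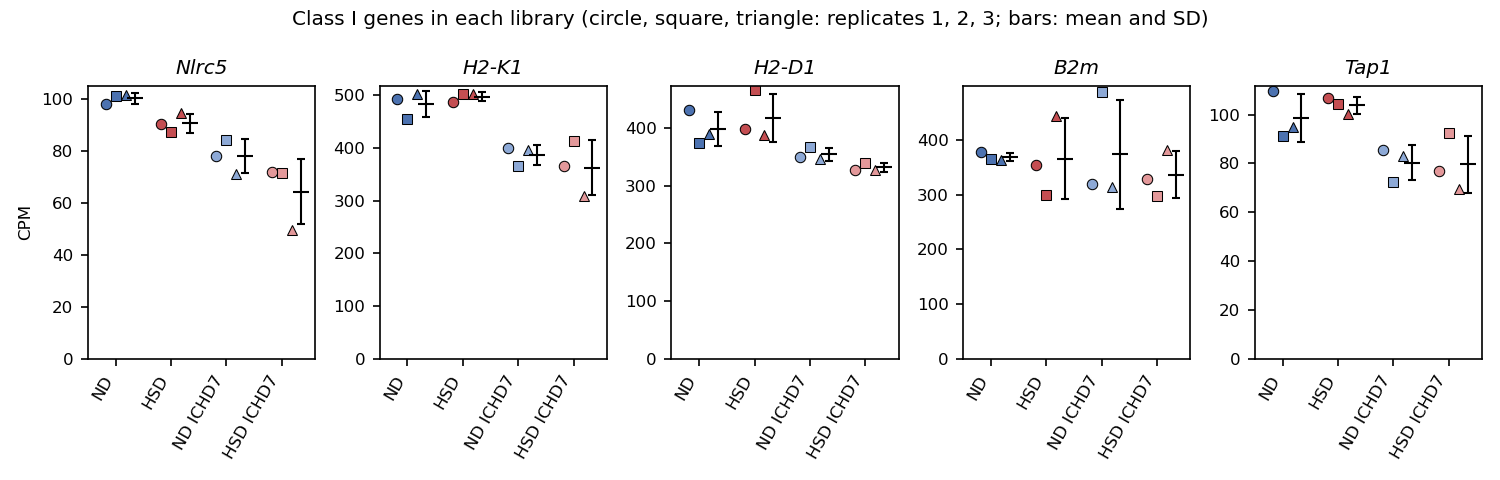
CPM of the 5 class I genes in each library, by group, with the mean and SD beside the points. For H2-K1 and Nlrc5 all 6 libraries after ICH lie below all 6 without ICH, and for B2m the groups overlap.

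Of the class II members on ND, Cd74 had 8.89, 10.9 and 13.3 CPM in ND and 8.02, 8.18 and 6.68 CPM in ND ICHD7, without overlap (log2 fold change -0.49, adjusted p = 0.0844 by limma). Ciita had a higher mean after ICH, at 3.36 ± 0.741 CPM against 2.39 ± 0.365 CPM (log2 fold change 0.41, 95% interval -0.05 to 0.87, limma), and H2-Aa was at 3.77 ± 1.60 against 4.08 ± 0.874 CPM. H2-Eb1 was at 1.56 ± 0.872 against 2.48 ± 0.690 CPM (log2 fold change -0.59, 95% interval -1.27 to 0.10, limma). H2-Ab1 was at 14.7 ± 4.10 against 16.8 ± 2.97 CPM (log2 fold change -0.21, 95% interval -0.65 to 0.22, limma). In all, H2-K1, Nlrc5, Tap1 and Cd74 had an unadjusted p under 0.05, 4 members and all lower, where 10.3% of 19387 genes were lower and 18.1% higher. At an adjusted p under 0.05, 2 members were lower, against 3.23% of genes lower and 16.7% called in either direction, and 5 members had groups without overlap, against 33.4% of genes. The adjusted calls were not firm. H2-K1 had an adjusted p of 0.0720 to 0.136 when any 1 of the 6 libraries was left out, and over all alternatives it ranged from 0.0187 to 0.136. Nlrc5 ranged from 0.0105 to 0.125, losing the call without ND replicate 2, ND ICHD7 replicate 1 or ND ICHD7 replicate 3. Unadjusted, H2-K1 and Nlrc5 stayed below 0.05 without any one library (log2 fold changes -0.36 to -0.28 and -0.42 to -0.30). Tap1 did not without ND replicate 1 (-0.21), nor Cd74 without ND replicate 3 (-0.35) or ND ICHD7 replicate 3 (-0.40). Without ND replicate 1, Cd74 had an adjusted p of 0.0326 (log2 fold change -0.63, limma). Without ND ICHD7 replicate 2, H2-D1, B2m (-0.22), H2-Ab1 (-0.42) and H2-Eb1 (-0.90) were also lower at an unadjusted p under 0.05 by limma. Ciita was higher at that threshold without ND ICHD7 replicate 1 (0.55). B2m, near 0, turned sign under RLE scaling.

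On HSD, 4 of 5 class I and 3 of 5 class II members were lower after ICH at an unadjusted p under 0.05, and none at the adjusted threshold by limma. H2-K1 had 487, 502 and 502 CPM in HSD and 366, 413 and 308 CPM in HSD ICHD7 (log2 fold change -0.47, SE 0.12, adjusted p = 0.0567 by limma). H2-D1 (log2 fold change -0.33), Tap1 (-0.39) and Nlrc5 (-0.51) also had no overlap between groups, with adjusted p of 0.115, 0.0866 and 0.0723 by limma. H2-Aa had 3.196, 2.81 and 4.54 CPM in HSD and 2.12, 1.18 and 0.69 CPM in HSD ICHD7 (log2 fold change -1.19, SE 0.32, adjusted p = 0.0610 by limma), and Cd74 had 7.42, 10.1 and 6.44 CPM against 5.74, 4.07 and 2.02 CPM (log2 fold change -1.01, adjusted p = 0.115 by limma). H2-Ab1 was at 13.6, 23.3 and 14.2 CPM in HSD and 10.9, 12.5 and 10.1 CPM in HSD ICHD7 (log2 fold change -0.55, adjusted p = 0.177 by limma). B2m, at 366 ± 73.3 and 336 ± 42.8 CPM, overlapped between groups, as did Ciita and H2-Eb1.

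These 7 members had an unadjusted p under 0.05, all lower, where 9.73% of 18082 genes were lower and 11.8% higher. None passed an adjusted p of 0.05 (range 0.0567 to 0.177 for the 7, limma), against 6.58% of genes in either direction and 1.26% lower. By DESeq2, H2-K1 and H2-Aa passed it (adjusted p 0.0302 and 0.0345), without a filter on low reads H2-K1, Nlrc5 and H2-Aa did (0.0404, 0.0489 and 0.0449 by limma), and with all 12 libraries in the fit all 7 but H2-Ab1 did (0.00694 to 0.0255 by limma). Groups without overlap were seen for 7 members and 28.7% of genes. This comparison shares the HSD ICHD7 libraries with that of the diets after ICH. Without HSD ICHD7 replicate 3, the log2 fold change of Cd74 was -0.65 and that of Nlrc5 -0.34. Without HSD replicate 2, Cd74 (log2 fold change -0.84) and H2-Ab1 (-0.30) no longer had an unadjusted p under 0.05, and neither did H2-Ab1 without HSD ICHD7 replicate 1 (-0.54). In both comparisons of ICH with no ICH, the counts of genes listed at 0 differed between the groups as given above, and macrophage marker sums were highest in ND replicate 1 and HSD replicate 2. Markers of other cells were counted at an unadjusted p under 0.05. After ICH on ND, 4 of 10 dendritic and 4 of 8 B cell genes were higher and 5 of 15 macrophage genes lower. Of all genes, 18.1% were higher and 10.3% lower. Leaving out ND replicate 1 gave 4 dendritic and 3 B cell genes higher, and 1 macrophage gene lower and 1 higher. On HSD, 6 of 9 neutrophil genes were higher and 8 of 12 HSPC genes lower, beside 11.8% and 9.73% of all genes. The part of these in the results was not tested. The directions of H2-K1, H2-D1, Tap1 and Nlrc5 after ICH held under RLE scaling, which moved the median of all genes by less than 0.1 on the log2 scale in every comparison.

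The other class I heavy chains of the mouse, mostly nonclassical molecules of the Q, T and M regions, formed a list of 20 genes, of which 14 were in the files. After ICH on ND, 7 of 14 tested were lower and none higher, at both the unadjusted and the adjusted threshold, beside 10.3% and 3.23% of all genes lower. H2-Q6 had 145, 141 and 183 CPM in ND and 98.3, 107 and 86.4 CPM in ND ICHD7 (log2 fold change -0.68, SE 0.12, adjusted p = 0.00212 by limma), and all libraries after ICH lay below all without it. H2-Q4 had 104, 96.2 and 117 CPM in ND and 75.1, 75.6 and 72.4 CPM in ND ICHD7 (log2 fold change -0.50, adjusted p = 0.00226 by limma). H2-Q7, a Qa-2 chain, had 179, 198 and 229 CPM against 136, 144 and 107 CPM (log2 fold change -0.65, adjusted p = 0.00464 by limma). The list's median log2 fold change was -0.37, beside 0.01 over all genes.

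**Figure D5:**
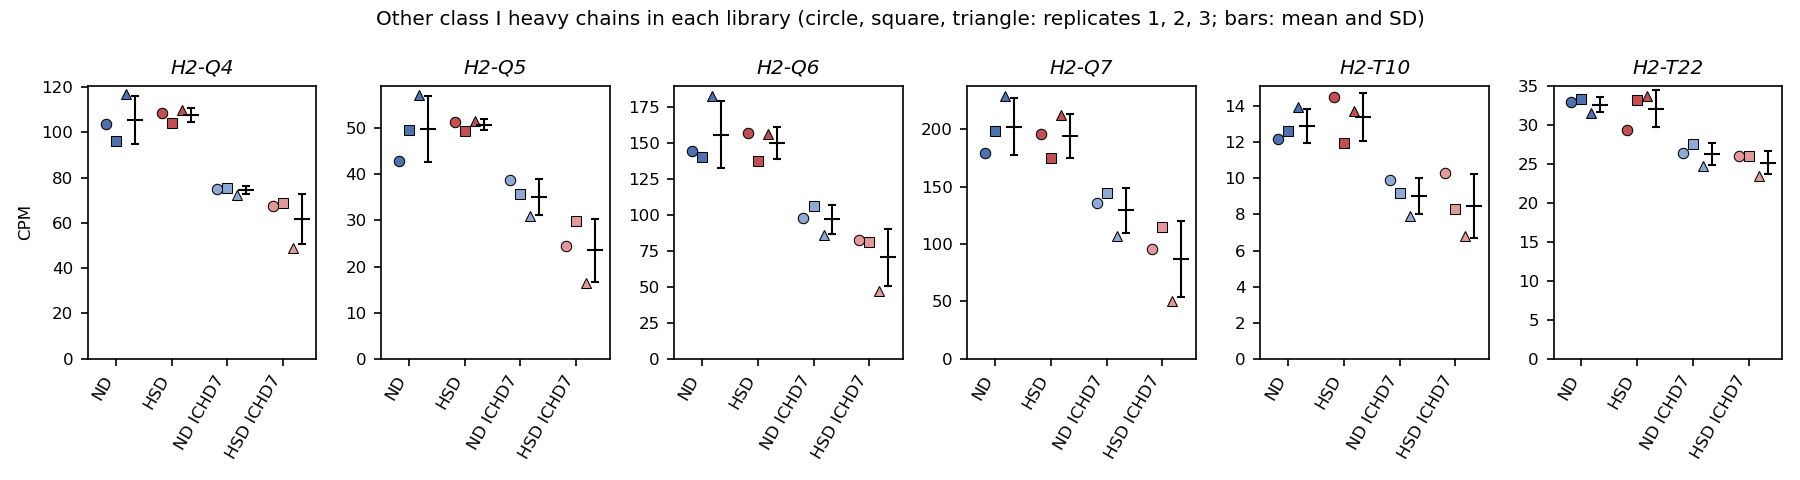
CPM of 6 other class I heavy chains in each library, by group, with the mean and SD beside the points. For each of the 6 genes the libraries after ICH lie below those without ICH of the same diet, and HSD ICHD7 replicate 3 (triangle) has the lowest value.

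On HSD, 8 of 14 were lower after ICH at an unadjusted p under 0.05 and 4 of them at the adjusted threshold, with none higher, beside 9.73% and 1.26% of all genes lower. H2-Q4 (log2 fold change -0.81, adjusted p = 0.00824), H2-Q5 (-1.13, adjusted p = 0.00872) and H2-Q6 (-1.13, adjusted p = 0.0101) had the smallest p by limma. H2-Q5 had 51.4, 49.4 and 51.6 CPM in HSD and 24.4, 29.9 and 16.4 CPM in HSD ICHD7. Without HSD ICHD7 replicate 3 the counts were 7 and 4 of 13 tested, and without ND replicate 1 on ND they were 7 and 6 of 13. Between the diets after ICH, H2-Q5 (-0.60), H2-Q6 (-0.50) and H2-Q7 (-0.64) had an unadjusted p under 0.05, with adjusted p of 0.264, 0.294 and 0.300 by limma. Without HSD ICHD7 replicate 3 it was 1 of 14. None of 13 passed an unadjusted p of 0.05 between the diets without ICH, and H2-Q5 alone did in the interaction (log2 difference -0.64, adjusted p = 0.541 by limma). Of the 150-base windows, H2-Q7 shared 9.68% exactly with other genes (H2-Q5 and H2-Q6). H2-Q6 shared 5.99% (with H2-Q7) and H2-Q5 3.18% (with H2-Q7 and H2-Q10), so reads could have been split among these genes. H2-Q4 shared none, but only exact identity over 150 bases was searched.

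The genes that supply and load class I peptides (12 of 12 tested) gave no call after ICH on ND, where none passed an unadjusted p of 0.05 by limma and the median log2 fold change was 0.01. On HSD, Tap2, the partner of Tap1, was lower after ICH (97.3, 110 and 97.0 CPM against 80.5, 90.6 and 62.8 CPM, log2 fold change -0.39, adjusted p = 0.142 by limma), as was Psmb9, an immunoproteasome subunit (-0.34), while Calr, the chaperone calreticulin, was higher (0.49). These 3 had an unadjusted p under 0.05 and none an adjusted one. HSD ICHD7 replicate 3 had 1531 CPM of Calr beside 856 and 1002 CPM in the other HSD ICHD7 libraries. Psmb8, another immunoproteasome subunit, was at 118 to 150 CPM in all libraries, with log2 fold changes from -0.06 to 0.07. Without HSD replicate 2, none of the 12 passed on HSD after ICH. By limma none of the 12 passed an unadjusted p of 0.05 between the diets, with or without ICH, or in the interaction. After ICH, 2 were higher between the diets at that threshold by edgeR, 2 by DESeq2 and 1 with RLE scaling. Without ND replicate 1, 4 were higher in HSD than in ND and 1 was higher after ICH on ND.

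Of 12 class II loading and turnover genes tested, 1 was lower (H2-Ob) and 1 higher (Ifi30) between the diets after ICH at an unadjusted p under 0.05, near the 10.2% lower and 5.42% higher of all genes. H2-Ob, a chain of the H2-O molecule that restrains peptide exchange, had 32.7, 36.5 and 23.5 CPM in ND ICHD7 and 23.8, 18.9 and 12.03 CPM in HSD ICHD7 (log2 fold change -0.77, adjusted p = 0.260 by limma), overlapping slightly. Ifi30, the lysosomal thiol reductase, was higher, with 3.62, 3.64 and 2.79 CPM against 5.19, 4.07 and 7.33 CPM (log2 fold change 0.62, adjusted p = 0.281 by limma). Without HSD ICHD7 replicate 3, 0 of the list were higher and 2 lower at that threshold. H2-Ob was below that threshold also in HSD ICHD7 against HSD (-0.61), as was Ctsl, a cathepsin (-0.45), and in the interaction (-0.71). H2-DMa and H2-DMb1, the 2 chains of the H2-M peptide exchanger, did not pass in any comparison, with log2 fold changes from -0.20 to 0.22 for H2-DMa and -0.02 to 0.00 for H2-DMb1 in the comparisons of groups. By limma no gene of the list passed an unadjusted p of 0.05 on ND after ICH or between the diets without ICH. Without ND replicate 1, 2 were higher on ND after ICH and 1 in HSD against ND, and without HSD replicate 2, 2 were lower in HSD against ND.

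Between the diets after ICH, 7 of 17 regulators of MHC genes had a log2 fold change under 0 and 3 of them an unadjusted p under 0.05 (Irf1, Irf2 and Irf4) by limma. By DESeq2, 0 were lower and 4 higher at that threshold, so the call of Irf1 was lost. Irf1, an interferon-induced activator, had 47.1, 56.5 and 58.5 CPM in ND ICHD7 and 46.6, 42.5 and 37.5 CPM in HSD ICHD7, just without overlap (log2 fold change -0.35, adjusted p = 0.274 by limma). Spi1, the myeloid factor PU.1, was higher after HSD in ICH mice (log2 fold change 0.43), as was Ifngr2, a chain of the interferon-gamma receptor (0.41). Irf8, a factor of monocyte and dendritic cell fate, had 87.0, 72.2 and 59.5 CPM in ND ICHD7 and 108, 76.2 and 189 CPM in HSD ICHD7 (log2 fold change 0.68, adjusted p = 0.300 by limma), with overlap. The 3 lower and 3 higher of 17 stand against the 10.2% and 5.42% of all genes given above, and were 1 and 1 without HSD ICHD7 replicate 3. Irf8, Spi1 and Ifngr2 had their highest value of all libraries in that replicate. Rfx5, the DNA-binding subunit of the RFX complex, was at 41.6 to 51.0 CPM in all libraries, and its log2 fold change was 0.01 (95% interval -0.23 to 0.24, limma).

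After ICH on ND, Nfya, a subunit of NF-Y, was lower (log2 fold change -0.32, adjusted p = 0.0196), and Ifngr1, the ligand-binding chain of the interferon-gamma receptor, was higher (0.60, adjusted p = 0.00511) by limma. Irf4 was higher too, from 0.72 to 0.91 CPM in ND and from 1.31 to 1.84 CPM in ND ICHD7 (adjusted p = 0.0349 by limma). So 2 of 17 regulators were lower and 2 higher at both thresholds. The unadjusted shares were near or below the 10.3% lower and 18.1% higher over all genes. At the adjusted threshold, 3.23% of all genes were lower and 16.7% were called in either direction. On HSD, 4 were lower after ICH and 5 higher at an unadjusted p under 0.05 (9.73% and 11.8% of all genes), none at the adjusted threshold, among them Ifngr1 (log2 fold change 0.98, adjusted p = 0.0531) and Irf1 (-0.35, adjusted p = 0.0985) by limma. Without HSD ICHD7 replicate 3, 4 were lower and 3 higher of 16 tested, 1 of them higher at the adjusted threshold. Ifngr1 had 199 CPM in that replicate beside 93.8 and 97.0 CPM in the other HSD ICHD7 libraries. Without ICH, Spi1 was higher (log2 fold change 0.20) and Irf4 lower (-0.62) in HSD at an unadjusted p under 0.05 by limma, and none of the 17 by DESeq2 or without HSD replicate 2. No regulator passed in the interaction by limma.

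Within the groups, the genes whose values followed the class II chains most closely were ranked by Pearson's r with the mean log2 level of H2-Aa, H2-Ab1, H2-Eb1 and Cd74, over 12 libraries after the group means were subtracted. They were Spag1 (r = 0.933), B330016D10Rik (0.928), Mir6955 (0.922), Crebrf (0.919), Gimap6 (0.919) and n-R5s215 (0.914), of 20393 genes compared. For the mean of H2-K1, H2-D1 and B2m they were Dcun1d2 (r = 0.924), Gm16589 (0.917), 4930473A02Rik (0.915), Ppp2r3c (0.914), Snora78 (0.907) and Hscb (0.904). These are the highest of many values over few libraries, which share depth and scaling with the genes they were ranked against, and no test was made of them.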

How the data were processed

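HSPC RNA was sequenced from SMART-Seq stranded libraries on a NovaSeq. Alignment to mm10 was by Rsubread and counting by featureCounts, after which the authors applied TMM scaling in edgeR 3.24.3. The deposited values are CPM scaled by TMM for 20792 genes per library, and include genes that the filter stated in the methods (CPM above 10 in at least 3 samples, met by 10084 genes) would remove. All values were whole multiples of the CPM of 1 read within 0.01 of a read, which gave reads per gene. In HSD replicates 2 and 3 the step lies near 0.1 (0.100 and 0.106 CPM), and the largest distance from a whole read was 4.51e-05 and 4.07e-05.

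Groups follow the labels. Pairs of groups were compared with limma 3.58.1 (R 4.3.3) with a variance trend on log2(CPM + 0.5), in separate fits of 6 libraries, and the interaction in 1 fit of 12. A gene was tested where 3 or more of the fitted libraries had 10 or more reads of it, with p values adjusted by Benjamini and Hochberg. Fold changes are on the log2(CPM + 0.5) scale, which understates the change of low genes. Exon lengths and coordinates came from GENCODE M21 (GRCm38). Alternatives were edgeR 4.0.16 quasi-likelihood and DESeq2 1.42.0 on the recovered reads, a pseudocount of 0.1, other filters and scaling, 1 fit of all libraries, a block for the replicate number, leaving out each library in turn, and leaving out both macrophage-rich libraries. The fits were tested on simulated data. Same-numbered libraries correlated at -0.191 to 0.0943 after removal of group means, so numbers were not treated as pairs.

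The members, gene lists and markers were chosen with earlier results of these data known. All members are named. From each pathway list, up to 3 genes with the smallest unadjusted p under 0.05 are named in each comparison, with Irf1, Irf8, Psmb8, Tap2, H2-DMa, H2-DMb1 and Rfx5 always. Some genes that these rules name are not reported here. Other marker genes named, Irf2, and Irf4 after ICH, were chosen after their values were seen. The protein sequences were not used here.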

Additional observations from a re-analysis of the deposited data

How the results depend on the processing

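No direction of a member with an unadjusted p under 0.05 was reversed under the alternatives tried. Of 775 member values, 747 kept their side of the adjusted threshold, 15 lost the call (all H2-K1 or Nlrc5 in ND ICHD7 against ND) and 13 gained it. The cause of each shift was not tested. Low depth limits Ciita, H2-Aa and H2-Eb1, which the stated CPM filter removes.

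Genes with an adjusted p under 0.05 in HSD against ND (13 by limma) numbered 1 without a filter, 66 by DESeq2, 1 with all 12 libraries, 91 without the macrophage-rich libraries and 8 to 22 with 1 library left out. After ICH the diets differed in 0 genes by limma, 104 by DESeq2 and 297 with all libraries. For ICH on ND (3245) the count was 122 under the stated filter and 264 to 2995 with 1 library left out. For ICH on HSD (1189) it was 2384 without a filter, 47 under the stated filter, 3544 with all libraries, 671 without the macrophage-rich libraries and 56 to 671 with 1 left out.

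Members with an unadjusted p under 0.05 in HSD against ND (1) numbered 2 by edgeR, with RLE scaling and without the macrophage-rich libraries, 0 with all libraries and 0 to 2 with 1 left out. After ICH the diets gave 3, and 1 of 7 tested under the stated filter and 3 to 5 with 1 left out. ICH on ND gave 4, and 3 to 8 with 1 left out, the most without ND ICHD7 replicate 2. The interaction gave 2, with 0 of 7 under the stated filter, 1 without the macrophage-rich libraries and 1 to 3 with 1 left out.

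With the replicate block, members called numbered 1, 3, 5 and 7 in the comparisons of groups and 2 in the interaction, and genes called 16, 0, 3304, 1081 and 0. The block moved H2-K1 in ND ICHD7 against ND to an adjusted p of 0.0702. The libraries share a number only, and why this call was lost with the block was not tested.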
